A study of Mus musculus with 6 samples.

Results

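The 10 genes described here act in autophagy and in muscle atrophy: the transcription factors Foxo1 and Foxo3, the ubiquitin ligase genes Trim63 and Fbxo32, the autophagosome proteins Map1lc3b and Gabarapl1, the receptors Sqstm1 and Bnip3, and the lysosomal genes Ctsl and Lamp2. They were taken by name from the 46078 gene features of each count table, together with 7 annotated features whose exons overlap theirs on the other strand, of which 5 are in the count tables. RNA came from heart muscle cells (cardiomyocytes) isolated from mice by perfusion of the heart, with 3 libraries after knockdown of Acly (Acly-KD) and 3 of wildtype cells (control). Acly encodes ATP citrate lyase, which makes cytosolic acetyl-CoA. The series' design text says that the knockdown was made with MyH6-Cas9 mice, in which the promoter of the cardiac myosin gene Myh6 drives the Cas9 nuclease in heart muscle cells. Whether control cells carried Cas9, how the guide was given, the strain, age and sex of the mice, and whether each library is a separate animal are not given in the labels or design text, so the spread behind the p-values may be partly or wholly technical.

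In autophagy, a membrane grows around cytoplasm or organelles and fuses with the lysosome, where the contents are broken down. Proteins of the ATG8 family, which include LC3 and GABARAP, are bound to that membrane, and receptors such as p62 link cargo to them. In muscle, FOXO transcription factors switch on both autophagy genes and the ubiquitin ligases MuRF1 and atrogin-1, which mark proteins for the proteasome. Insulin signalling through AKT keeps FOXO factors out of the nucleus. In heart muscle these pathways are known for their part in protein turnover, fasting and unloading.

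The deposited counts looked strand-swapped: 91.9% of the nuclear counts lay in the 18.0% of nuclear features whose exons overlap exons on the other strand. Each member was therefore read in 2 ways. As deposited, the reads counted at a member's own locus are taken as they stand, and under a swap they would come from the strand opposite to its mRNA. In the reading of mRNA, the counts of the feature on the other strand are given to the member. Foxo3, Trim63 and Lamp2 have no exons of another gene opposite to them and could be read only at their own loci. The features opposite to Bnip3 (Gm45507) and Ctsl (Gm47123) are annotated but have no row in the tables used here. The other 5 members have a feature with counts on the other strand, and the overlaps differ widely. Gm20402 shares 674 of its 687 exonic bases with the first exon of Foxo1, which is 98.1%. The noncoding 1700101I11Rik shares 570 of 1868 bases (30.5%) with Gabarapl1, and Mrnip shares 580 of 2039 bases (28.4%) with the end of Sqstm1. Gm15943 shares only 186 of 3821 bases (4.87%) with Fbxo32, and Zcchc14 shares 58 of 7780 bases (0.746%) with the end of Map1lc3b.

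**Figure D1:**
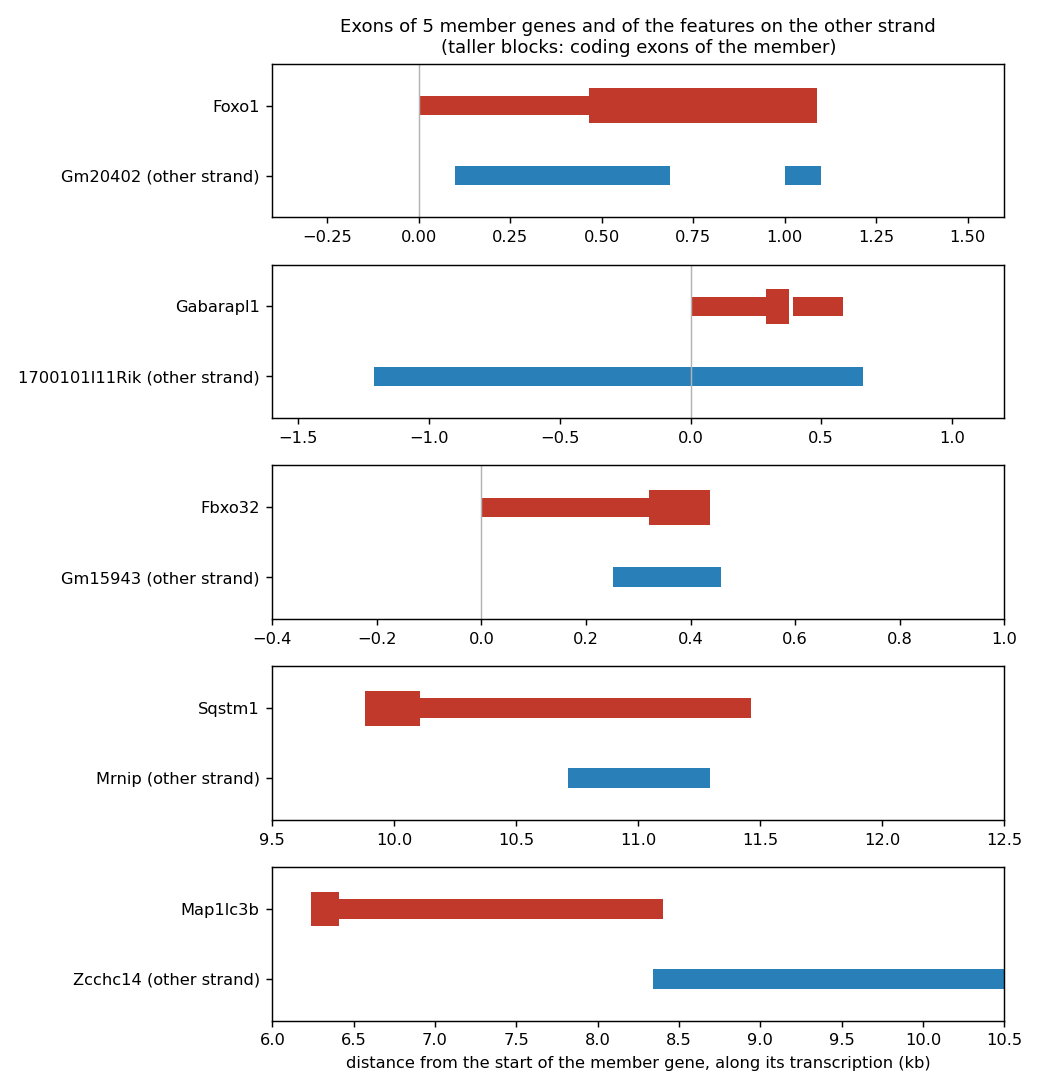
Exons of 5 members (red) and of the feature on the other strand (blue) along the distance in kb from the start of the member, in its direction of transcription; taller blocks are coding exons and each panel shows only the end of the gene that overlaps. The overlap covers 674 bases in Foxo1, 570 in Gabarapl1, 186 in Fbxo32, 580 in Sqstm1 and 58 in Map1lc3b.

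For Foxo1, Gabarapl1 and Fbxo32 the overlap takes in the start of the coding sequence, with 307 coding bases in Foxo1. The shorter stretches of Gabarapl1 and Fbxo32 are shown because they are the only coding bases of these mRNAs that the other feature could report. They are given 5′ to 3′ on the strand of the member, with the start codon in capitals, from the GENCODE M21 transcripts on mm10. The stretch of Fbxo32 is 116 bases at chr15:58214496-58214611 on the minus strand, and that of Gabarapl1 is 90 bases at chr6:129533447-129533536 on the plus strand.
Fbxo32: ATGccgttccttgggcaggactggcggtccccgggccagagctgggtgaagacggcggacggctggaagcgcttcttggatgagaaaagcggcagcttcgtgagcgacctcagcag
Gabarapl1: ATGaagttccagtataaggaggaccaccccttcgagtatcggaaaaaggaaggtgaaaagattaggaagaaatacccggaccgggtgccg

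The single exon of 1700101I11Rik also runs across the promoter of Gabarapl1, so its counts bear on that region too. The 218 bases before the annotated start (chr6:129532942-129533159, GRCm38.p6, the build called mm10, plus strand, sequence from RefSeq) hold 1 match to TAAACA, in capitals, which is the core of the FOXO motif.
Gabarapl1 promoter: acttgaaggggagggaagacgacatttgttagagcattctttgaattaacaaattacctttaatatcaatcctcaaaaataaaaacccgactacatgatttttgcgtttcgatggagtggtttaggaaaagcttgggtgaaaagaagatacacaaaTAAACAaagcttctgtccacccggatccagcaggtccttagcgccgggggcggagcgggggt
Promoter windows from 250 bases before to 50 after the start were found for 9 of the 10 members in the RefSeq table, and Fbxo32 had none there. On either strand, the FOXO motif GTAAACA was in 1 of them (Trim63, 194 bases before the start), its core TAAACA in 3 (Trim63, Ctsl and Gabarapl1) and CACGTG, the core of the motif bound by the lysosomal regulator TFEB, in 2 (Bnip3 and Ctsl). Of 32851 mouse promoter windows, 3.65% held GTAAACA, 13.4% TAAACA and 7.15% CACGTG, and each GTAAACA match contains TAAACA.

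Reads counted in features numbered 460222 to 799868 per Acly-KD library and 271463 to 814765 per control library, and the reading of mRNA used 140295 to 445228 reads per library. Acly itself received 0 reads in each Acly-KD library and 1, 5 and 6 reads in the controls, all on the strand that the swap would make the wrong one. Opposite to Xist, which coats the inactive X chromosome in females, there were 0 reads in every Acly-KD library, 0 in control replicate 1, 149 in control replicate 2 and 137 in control replicate 3. If these are reads of Xist RNA, the groups are unbalanced by sex, and sex and knockdown cannot be told apart, for X-linked Lamp2 as for the other members. Heart muscle cell markers had reads at 9 of 9 loci, with summed levels of 4202 to 15079 CPM (counts scaled to TMM-normalized library size) in Acly-KD and 11085 to 14215 CPM in control. In the reading of mRNA 2 of these 9 markers had counts, with 4168 to 4840 CPM in Acly-KD and 3318 to 3864 CPM in control. For this sum every Acly-KD library was above every control, while the groups were apart for 14.7% of single genes of this reading. The part of this in the results was not tested. Macrophage markers, which bear on lysosomal genes, had reads at 7 of 9 loci, with 80.6 to 102.9 CPM in Acly-KD and 98.3 to 128 CPM in control and with Adgre1 and Ptprc at 0. Fibroblast markers summed to 16.9 to 26.9 CPM in Acly-KD and 12.9 to 27.2 CPM in control, over 8 of 8 loci with reads, endothelial markers to 19.5 to 79.995 CPM and 31.6 to 59.2 CPM over 7 of 7, pericyte and smooth muscle markers to 55.3 to 180 CPM and 120.2 to 135 CPM over 7 of 7, and red blood cell markers to 7.68 to 22.0 CPM and 12.9 to 31.9 CPM over 5 of 5. These levels of other cell types are as deposited, and under a swap they would come from the strand opposite to the mRNA. In the reading of mRNA 0 of the macrophage, fibroblast, endothelial and red blood cell markers had counts. Of the pericyte and smooth muscle markers 1 of 7 did, at 1058 to 1459 CPM in Acly-KD and 1245 to 1409 CPM in control. The share of other cell types is therefore not known, and fewer cells of a type and less RNA per cell cannot be told apart.

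Among the 10 members, no change passed in either reading at an adjusted p of 0.05 (edgeR quasi-likelihood, Benjamini-Hochberg). As deposited 6 members were tested and 0 passed; 0 had an unadjusted p under 0.05, and 0 passed in DESeq2. Over all 2952 features the share that passed was 0%, with 6.1% at an unadjusted p under 0.05. In the reading of mRNA 2 members were tested, Foxo1 and Gabarapl1, and 0 passed, with Gabarapl1 at an unadjusted p under 0.05 and 0 passing by DESeq2. Over all 1453 genes of that reading 0.413% passed, and 8.6% had an unadjusted p under 0.05.

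Gabarapl1 (chromosome 6, 129533160 to 129542346, plus strand, mm10) had the most reads of the members in the reading of mRNA and the smallest p. It encodes an ATG8 protein of the GABARAP branch that takes part in autophagosome formation and cargo binding. Its opposite feature 1700101I11Rik held 206, 137 and 336 reads in the Acly-KD libraries (replicates 1 to 3 in order, as in every such triplet) and 105, 458 and 379 reads in the controls. Given to Gabarapl1, these were 575, 624 and 849 CPM in Acly-KD and 747, 1063 and 1033 CPM in control. Acly-KD replicates 1 and 2 lay below all 3 controls, while Acly-KD replicate 3 lay above control replicate 1, so the groups overlapped. The means were 683 ± 146 CPM in Acly-KD and 948 ± 175 CPM in control (SD, n = 3 each), and the log2 fold change was -0.49 with SE 0.17 and a 95% interval from -0.83 to -0.14. In edgeR's fit across all genes its p was 0.00731 and its adjusted p was 0.285. By exact permutation of the libraries, two-sided, p = 0.2, where 0.1 is the smallest that 3 against 3 allow.

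The highest Gabarapl1 controls were replicates 2 and 3, which also hold the reads opposite to Xist, and control replicate 1, which holds none, lay within the range of Acly-KD. A term for these libraries leaves control replicate 1 as the sole control, and against it the log2 fold change was -0.12 (adjusted p = 0.933 in edgeR), which adds nothing to that position. With Acly-KD replicate 3 left out it was -0.69 and passed the threshold by a narrow margin (adjusted p = 0.0497 in edgeR), the single pass of a member among its 17 alternatives, over which the adjusted p ran from 0.0497 to 0.933. Reads of Gabarapl1 mRNA, reads elsewhere in 1700101I11Rik and reads of a transcript on the other strand of that feature cannot be told apart in these counts. At its own locus Gabarapl1 had 5, 9 and 17 reads in Acly-KD and 6, 29 and 13 reads in control, or 7.68, 22.0 and 21.2 CPM against 21.8, 34.3 and 18.7 CPM; the log2 fold change was -0.60 (SE 0.52, edgeR adjusted p = 0.959).

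**Figure D2:**
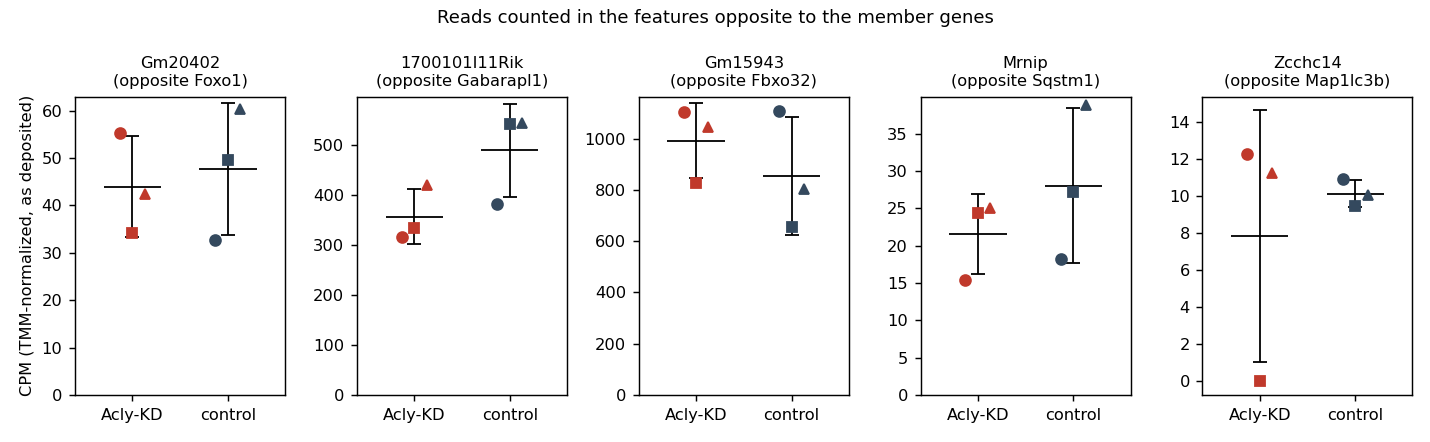
CPM of the features opposite to 5 members in the deposited counts, for Acly-KD (red) and control (dark) libraries; circles, squares and triangles are replicates 1, 2 and 3, lines are means and bars are SD (n = 3). For 1700101I11Rik, opposite Gabarapl1, Acly-KD libraries had 316, 335 and 420 CPM and controls 382, 542 and 545 CPM, and the groups overlap in all 5 panels.

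The other ATG8 member, Map1lc3b (chromosome 8, 121590361 to 121598760, plus strand), encodes LC3B, whose lipid-bound form is the usual marker of autophagosomes. Its opposite feature Zcchc14 shares only the last 58 bases of the gene. It held 8, 0 and 9 reads in Acly-KD and 3, 8 and 7 reads in control, too few to be tested as deposited. Under the rule for the reading of mRNA, counts go to the gene with the lower count. The reads at Map1lc3b were therefore given to Zcchc14 (log2 fold change -0.17, adjusted p = 0.944 in edgeR) and none to Map1lc3b. At its own locus Map1lc3b had 3, 7 and 16 reads in Acly-KD and 3, 17 and 9 reads in control, with a log2 fold change of -0.14 (95% interval -1.44 to 1.15, adjusted p = 0.977 in edgeR). These values overlap across nearly their whole range. The interval spans more than a doubling in either direction on the log2 scale, so these counts do not exclude a difference of that size.

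Foxo1 (chromosome 3, 52268336 to 52353221, plus strand) encodes a forkhead factor that insulin signalling restrains and that turns on atrophy and autophagy genes. Its opposite feature lies almost wholly inside its first exon, which makes this the reading with the least sequence outside the member. Gm20402 held 36, 14 and 34 reads in Acly-KD and 9, 42 and 42 reads in control. As Foxo1 these were 101, 63.8 and 85.9 CPM in Acly-KD and 64.0, 97.5 and 115 CPM in control, and both groups covered nearly the same range. The means were 83.4 ± 18.5 CPM in Acly-KD and 92.0 ± 25.7 CPM in control (SD, n = 3 each). The log2 fold change was -0.18 (SE 0.32, 95% interval -0.83 to 0.48, adjusted p = 0.920 in edgeR) and it turned to 0.01 without control replicate 3. Only 3 reads in all 6 libraries were counted at the own locus of Foxo1, 1 of them in Acly-KD and 2 in control.

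Foxo3 (chromosome 10, 42181841 to 42276755, minus strand), the FOXO factor best known for driving atrophy in skeletal muscle, was read only at its own locus. It had 2, 2 and 15 reads in Acly-KD and 7, 25 and 9 reads in control. These were 3.07, 4.88 and 18.7 CPM in Acly-KD and 25.5, 29.6 and 12.9 CPM in control, so Acly-KD replicates 1 and 2 were low and replicate 3 lay above control replicate 3. The log2 fold change was -1.21 (SE 0.66, 95% interval -2.60 to 0.18, adjusted p = 0.873 in edgeR). Leaving out Acly-KD replicate 3 moved it to -2.44 (adjusted p = 0.114 in edgeR) and leaving out Acly-KD replicate 1 to -0.77; over its 15 alternatives the adjusted p ran from 0.114 to 1.00.

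Trim63 (chromosome 4, 134315120 to 134329629, plus strand) encodes MuRF1, the muscle ubiquitin ligase that targets sarcomere proteins. It had 13, 11 and 36 reads in Acly-KD and 12, 52 and 24 reads in control, or 19.96, 26.9 and 45.0 CPM in Acly-KD and 43.7, 61.5 and 34.5 CPM in control. Acly-KD replicates 1 and 2 lay below the controls and replicate 3 lay among them. The log2 fold change was -0.59 (SE 0.41, 95% interval -1.47 to 0.28, adjusted p = 0.915 in edgeR). It was -0.98 without Acly-KD replicate 3, -0.34 without Acly-KD replicate 1 and -0.28 without control replicate 2, with adjusted p from 0.246 to 1.00 over its 17 alternatives.

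Fbxo32 (chromosome 15, 58175879 to 58214932, minus strand) encodes atrogin-1, the F-box protein of a ubiquitin ligase complex and the other classic marker of muscle atrophy. The feature opposite to it, Gm15943, was the most abundant of the 5, with 718, 338 and 837 reads in Acly-KD and 304, 553 and 559 reads in control. The levels were 1102, 825 and 1046 CPM in Acly-KD and 1107, 654 and 804 CPM in control, and the groups overlapped because control replicate 1 was the highest library of all. The log2 fold change was 0.23 (SE 0.19, 95% interval -0.17 to 0.63, adjusted p = 0.959 in edgeR), and it was 0.50 without control replicate 1 (adjusted p = 0.887) and 0.10 without control replicate 2. Only 11.4% of the bases that Gm15943 shares with genes on the other strand belong to Fbxo32; 1446 bases belong to Klhl38, a kelch-like gene, so the rule for the reading of mRNA gave these counts to Klhl38 (log2 fold change 0.21, adjusted p = 0.805 in edgeR) and none to Fbxo32. How many of them are Fbxo32 mRNA cannot be told. At its own locus Fbxo32 had 3, 2 and 16 reads in Acly-KD and 1, 13 and 4 reads in control and did not pass the filter on low counts. Its CPM there were 4.61, 4.88 and 19.999 in Acly-KD and 3.64, 15.4 and 5.75 in control, with 1 high library in each group (exact permutation p = 0.7).

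Sqstm1 (chromosome 11, 50199366 to 50210827, minus strand) encodes p62, the receptor that carries ubiquitin-tagged cargo into autophagosomes and builds up when autophagy stalls. It had the most reads of any member at its own locus, 18, 22 and 64 in Acly-KD and 12, 73 and 43 in control. These were 27.6, 53.7 and 79.995 CPM in Acly-KD and 43.7, 86.4 and 61.8 CPM in control, with groups that overlapped. The log2 fold change was -0.28 (SE 0.39, 95% interval -1.11 to 0.54, adjusted p = 0.965 in edgeR), and it turned to 0.03 without either Acly-KD replicate 1 or control replicate 2. Mrnip, on the other strand, held fewer reads, 10, 10 and 20 in Acly-KD and 5, 23 and 27 in control. Under the rule for the reading of mRNA a feature's counts go to the gene with the lower count, so the reads at Sqstm1 were given to Mrnip and none to Sqstm1. Read the other way, as Sqstm1 mRNA, the Mrnip feature had 15.4, 24.4 and 24.9985 CPM in Acly-KD and 18.2, 27.2 and 38.8 CPM in control (log2 fold change -0.44, 95% interval -1.41 to 0.54, adjusted p = 0.959 in edgeR). Neither way separated the groups.

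Bnip3 (chromosome 7, 138890836 to 138909519, minus strand) encodes a mitophagy receptor of the outer mitochondrial membrane that hypoxia and FOXO3 induce. Its own locus had 2, 3 and 15 reads in Acly-KD and 2, 8 and 2 reads in control, under the filter on low counts. The CPM were 3.07, 7.33 and 18.7 in Acly-KD and 7.28, 9.47 and 2.88 in control, where Acly-KD replicate 3 alone was above all controls (exact permutation p = 0.6).

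Ctsl (chromosome 13, 64359337 to 64370890, minus strand) encodes cathepsin L, a lysosomal protease that is induced in wasting muscle. It was the only tested member above zero, at a log2 fold change of 0.32 (SE 0.60, 95% interval -0.94 to 1.59, adjusted p = 0.965 in edgeR). It had 4, 8 and 29 reads in Acly-KD and 3, 19 and 10 reads in control, or 6.14, 19.5 and 36.2 CPM in Acly-KD and 10.9, 22.5 and 14.4 CPM in control. That sign rests on Acly-KD replicate 3: without it the log2 fold change was -0.46.

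Lamp2 (X chromosome, 38401357 to 38456454, minus strand) encodes a major protein of the lysosomal membrane that is needed for fusion with autophagosomes; its loss causes a heart muscle disease in people. It was the only member whose groups did not overlap at its own locus, with 0, 0 and 1 reads in Acly-KD and 2, 4 and 4 reads in control. These were 0, 0 and 1.25 CPM in Acly-KD and 7.28, 4.73 and 5.75 CPM in control. Pooled over libraries, 1 read against 10 is a ratio of 0.0975, with a 95% counting interval from 0.00225 to 0.686 (exact binomial, counting error only). The locus was too thin for the fit across all features, and the exact permutation test gave p = 0.1, the smallest that this design allows. Acly-KD lay wholly below control for 5.56% of the features tested, and the groups were apart in either direction for 11.4%. Lamp2 itself is not among those features, which have more reads. Since Lamp2 lacks an opposite feature, its mRNA was not measured here.

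**Figure D3:**
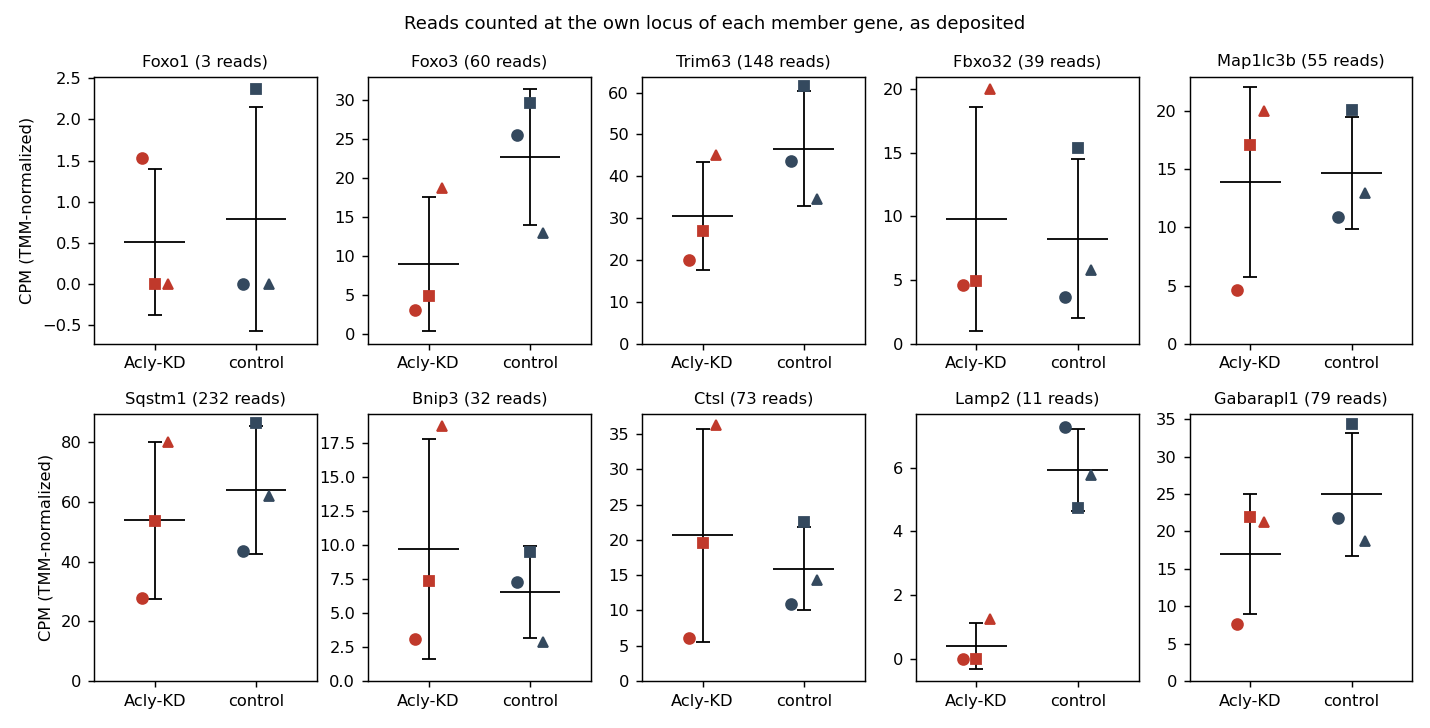
CPM at the own locus of each of the 10 members as deposited, for Acly-KD (red) and control (dark) libraries; circles, squares and triangles are replicates 1, 2 and 3, lines are means, bars are SD (n = 3), and titles give the reads over 6 libraries. Acly-KD replicate 1 (circle) is the lowest library for 6 members, control replicate 2 (square) is the highest for 6, and the groups are apart only for Lamp2.

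At their own loci, Acly-KD replicate 1 was the lowest library for 6 of the 10 members. Control replicate 2 was the highest for 6 and Acly-KD replicate 3 for 3. How often these libraries are lowest or highest over all features was not counted, and some members had few reads, so this is not a trait of the members. Summed over the 10, the own-locus level was 78.3, 156 and 261 CPM in Acly-KD replicates 1 to 3 and 175, 286 and 170 CPM in control replicates 1 to 3. Wrong-strand reads per mRNA read, a median over 163 genes measured both ways and set relative to the mean of the libraries, was 0.615, 0.806 and 1.26 in Acly-KD and 1.13, 1.11 and 0.901 in control. Both were lowest in Acly-KD replicate 1, but the summed level was highest in control replicate 2 and the ratio in Acly-KD replicate 3. A term for this ratio was added after the data were seen. With it the log2 fold changes were -0.95 for Foxo3, -0.36 for Trim63, -0.40 for Gabarapl1 at its own locus and -0.09 for Sqstm1. Each of these was nearer to zero than without the term. Map1lc3b changed sign, to 0.06, and Ctsl moved away from zero, from 0.32 to 0.55. The part of this ratio in the members' differences was not tested. Of the 6 members tested as deposited 5 were below zero, with a median of -0.44, where 54.4% of all features were below zero with a median of -0.04.

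**Figure D4:**
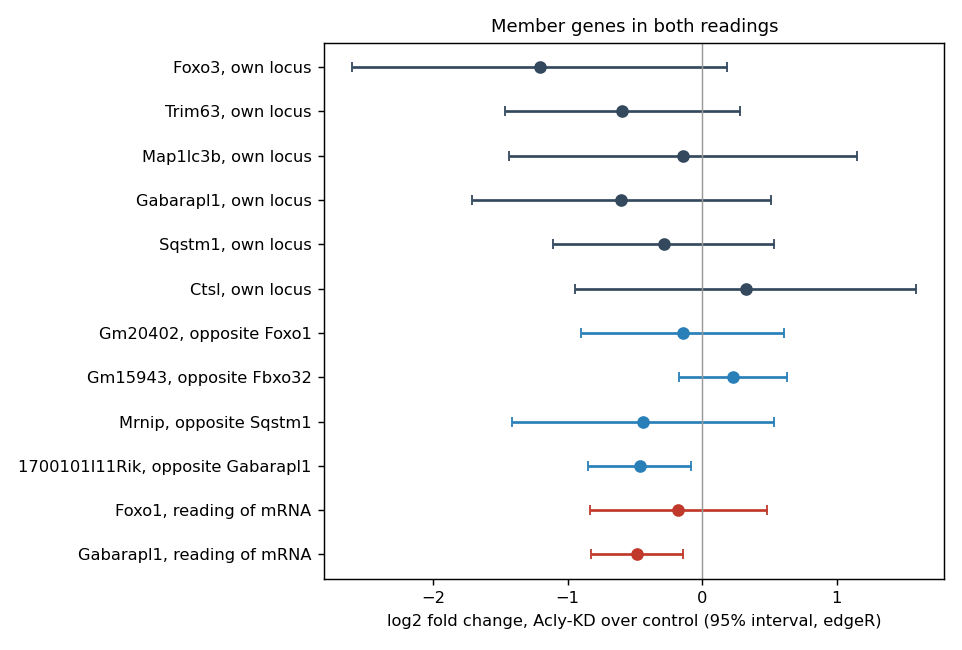
Log2 fold changes of Acly-KD over control with 95% intervals from edgeR for members at their own loci (dark), for the features opposite to members (blue) and for members in the reading of mRNA (red). Intervals cross zero in 10 of the 12 rows; the exceptions, 1700101I11Rik and Gabarapl1, are the same reads, with adjusted p of 0.680 and 0.285.

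The wider machinery was covered by lists of 224 genes. In the reading of mRNA 24 of them were tested and 0 passed by edgeR or DESeq2. An unadjusted edgeR p under 0.05 was found for 3, against 8.6% of all genes of this reading. Above zero were 13 and below zero 11, a median of 0.04 on the log2 scale, where 49.5% of all 1453 genes were below zero with a median of 0.01. Groups were apart for 8 of the 24, against 14.7% of all genes of this reading. Without the members 22 were tested in this reading, and 2 had an unadjusted edgeR p under 0.05. As deposited 43 were tested and 0 passed by edgeR or DESeq2, while 1 had an unadjusted edgeR p under 0.05, against 6.1% of all features. Of these 34 were below zero, against 54.4% of all features, with a median of -0.24. For 0 of them were the groups apart, against 11.4% of all features. Without the members 37 were tested as deposited, and 29 of them were below zero. The 54.4% mixes features with and without opposite-strand exons, and the list genes are not matched to it in this. A share below zero over features without such exons was not computed. In a fit to those features alone, 602 in number, the log2 fold change of Trim63 was -0.35, against -0.59 in the main fit. This limit holds for each comparison with the 54.4%, that of the members included.

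Among receptors and mitophagy genes 5 of 18 were read as mRNA, and 0 passed. Phb2, an inner mitochondrial membrane protein that can act as a mitophagy receptor, averaged 2951 ± 235 CPM in Acly-KD and 2397 ± 81.3 CPM in control (SD, n = 3 each; log2 fold change 0.30, SE 0.12, adjusted p = 0.400 in edgeR). Optn, which encodes the receptor optineurin, averaged 895 ± 117 CPM in Acly-KD and 690 ± 32.2 CPM in control (log2 fold change 0.37, SE 0.15, adjusted p = 0.408 in edgeR). The groups did not overlap for either gene, and both were read through short overlaps, 141 bases for Phb2 and 73 bases for Optn. Bcl2l13 had a log2 fold change of -0.05. Fkbp8, a mitophagy receptor of the outer mitochondrial membrane named after its values were seen, was apart in the other direction, at -0.57 (adjusted p = 0.634 in edgeR). Wdfy3, also named after its values were seen, was apart with Acly-KD higher, at 0.40 (adjusted p = 0.659 in edgeR). In this list the groups were thus apart for 3 genes higher and 1 lower, where 14.7% of all genes of this reading were apart. Optn stood at -0.45 at its own locus. At own loci 5 of 5 tested genes of this list, the member Sqstm1 included, were below zero, against 54.4% of all features. Among them were Pink1, the kinase that starts mitophagy, at -0.78 (SE 0.50), and Calcoco1 at -0.06.

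Among FOXO factors and their control genes, Foxo1 was the only one of 14 with a reading of mRNA. At its own locus Ppargc1a, the coactivator of mitochondrial biogenesis, had 42.9 ± 31.2 CPM in Acly-KD and 95.5 ± 39.9 CPM in control (SD, n = 3 each), with overlapping groups and a log2 fold change of -1.16 (SE 0.50, edgeR adjusted p = 0.784). Akt1 stood at -0.32 (SE 0.62). Of 25 ubiquitin ligases and other atrophy genes, 5 were read as mRNA, 2 above and 3 below zero, and 0 passed. Trim54, a relative of MuRF1 in the sarcomere, was abundant, with 6620 ± 554 CPM in Acly-KD and 6996 ± 612 CPM in control (log2 fold change -0.08, 95% interval -0.31 to 0.15). Stub1, the chaperone-linked ligase CHIP, averaged 2644 ± 107 CPM in Acly-KD and 2990 ± 137 CPM in control, with groups that did not overlap (log2 fold change -0.18, SE 0.12, adjusted p = 0.679 in edgeR). These are counts of the Jmjd8 feature, which shares 1084 bases with Stub1. At its own locus Stub1 had the other sign, 0.09 (SE 0.17), with overlapping groups.

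The steps before the autophagosome closes were little covered. Becn1, which encodes Beclin 1 of the nucleation complex, averaged 1064 ± 39.0 CPM in Acly-KD and 1015 ± 79.6 CPM in control (log2 fold change 0.07, 95% interval -0.20 to 0.35), read through 3104 bases shared with Cntd1. Bcl2 and Rb1cc1 stood at 0.24 and -0.28 with SE of 0.40 and 0.48, and 0 of the 16 initiation genes could be tested at their own loci. Atg4d, a protease that processes ATG8 proteins, had a log2 fold change of 0.08 (SE 0.17) as mRNA and -0.24 (SE 0.24) as deposited. Atg7, the enzyme that activates ATG8 proteins, stood at 0.21 (SE 0.37) at its own locus. Map1lc3a, the remaining ATG8 gene tested, stood at -0.80 (SE 0.56) at its own locus.

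Read as mRNA, Ctsb, the lysosomal protease cathepsin B, averaged 320 ± 51.1 CPM in Acly-KD and 303 ± 32.1 CPM in control (log2 fold change 0.04, SE 0.19). Of 42 lysosomal genes 2 were tested in that reading and 0 passed, and as deposited 7 were tested, 3 above and 4 below zero. Ctsa and Npc1 stood at -0.12 and 0.01 there, and the lowest, named after their values were seen, were Lamp1 at -1.09, Psap at -0.74 and Ctsd at -0.51, with adjusted p from 0.897 to 0.965 in edgeR. Rab7 stood at -0.48 (SE 0.46); it encodes a GTPase of late endosomes. Psma4, a proteasome core subunit, averaged 555 ± 19.5 CPM in Acly-KD and 574 ± 39.9 CPM in control (log2 fold change -0.04, SE 0.15), and at own loci Psmd7 and Psmc3 stood at -0.02 and -0.07.

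Of the nutrient-sensing genes of mTORC1, the kinase complex that holds autophagy down, 4 of 25 were tested as mRNA and 0 passed. Rragc, a GTPase that brings mTORC1 to the lysosome, averaged 63.5 ± 13.1 CPM in Acly-KD and 100.5 ± 17.05 CPM in control (log2 fold change -0.62, SE 0.33, adjusted p = 0.581 in edgeR). Mlst8, a subunit of the complex, averaged 261 ± 8.94 CPM in Acly-KD and 201 ± 51.9 CPM in control (0.32, SE 0.22, adjusted p = 0.721 in edgeR). The groups did not overlap for either. Rptor stood at -0.08 (SE 0.41), and at its own locus Tsc2, which restrains mTORC1, stood at 0.14 (SE 0.21). In chaperone-assisted autophagy, a route known for clearing damaged filamin in muscle, Flnc and Bag1 stood at -0.23 and -0.07 at their own loci. There 6 of 7 tested genes were below zero, against 54.4% of all features, and the lowest, named after their values were seen, were the chaperone genes Hspb8 at -0.94 and Bag3 at -0.72 (adjusted p = 0.906 for both in edgeR).

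**Figure D5:**
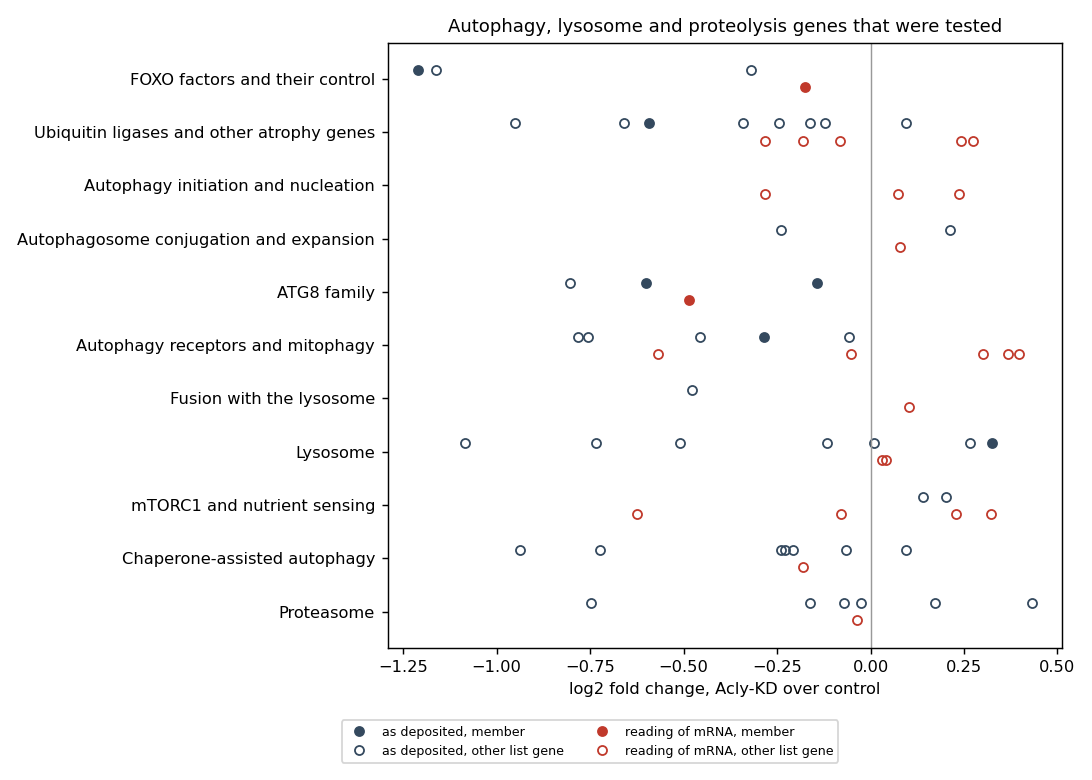
Log2 fold changes of Acly-KD over control for tested genes of 11 lists, as deposited (dark) and in the reading of mRNA (red); filled points are the members and open points the other genes. As deposited 34 of 43 genes lie below zero, against 11 of 24 in the reading of mRNA.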

How the data were processed

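The authors deposited raw read counts per gene, which are whole numbers. Per the labels' protocols, libraries were poly-A selected, paired-end and made with a kit that marks strand. Named without versions in the submitters' processing notes are TopHat2, SAMtools, HTSeq, DESeq2 and FastQC, with the build mm10; how HTSeq treated strand is not given in these sources. Rows that name no gene held 97.4% to 97.7% of the entries and were left out.

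Libraries were grouped by title. Features were matched by identifier to GENCODE M21 (45143 of 46078). In the reading of mRNA, counts of a nuclear feature went to the opposite gene that held 80% or more of the overlap, and 50 bases or more, provided that gene had a lower count or no row; this gave 2973 genes. Counts were tested with edgeR 4.0.16 (R 4.3.3; TMM, filterByExpr at 10 counts, quasi-likelihood fits with robust settings, Benjamini-Hochberg adjustment at 0.05) over all features, and the steps were tested on simulated counts. CPM use the TMM library sizes of each reading. Within each group no library repeated another (chi-square per degree of freedom 4.37 to 13.4), and pairs across groups were not checked. DESeq2 1.42.0 and the other settings below were alternatives. Among the 163 genes of the strand ratio, own-locus reads were under 20% of mRNA reads.

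The members and lists were chosen with earlier results of these data known. Named list genes are those passing or, failing that, the 3 with the most reads in each list and reading; 3 is also the number of libraries in each group. Some list genes are not reported here.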

Additional observations from a re-analysis of the deposited data

How the results depend on the processing

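As deposited, edgeR called 0 features higher and 0 lower, and DESeq2, its size factors, library totals, all uniquely aligned reads, the stricter filter, the replicate block and leaving out mitochondrial genes also gave 0 and 0. Without a filter it called 2 higher and 1 lower, with the term for wrong-strand reads 2 and 1, with features lacking opposite exons 1 higher, and with one library left out 0 to 23 higher and 0 to 46 lower. In the reading of mRNA it called 3 higher and 3 lower; DESeq2 called 1 higher, all uniquely aligned reads 0 higher, no filter 12 higher and 18 lower, the stricter filter 0 and 0 (98 at an unadjusted p under 0.05), the replicate block 5 and 7, the Xist term 0 and 0 (96), the wrong-strand term 0 and 1, 200 shared bases 1 higher, and one library left out 0 to 8 higher and 1 to 12 lower. The cause was not tested. Leaving out mitochondrial genes was not run for the reading of mRNA, which holds none. The labels do not say that a replicate number marks a shared animal or day, and same-numbered libraries did not deviate together (correlations -0.18 to -0.02); with the block 0 members and 0 list genes passed in either reading.

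For the members and their opposite features, 12 values gave 190 under alternatives, of which 174 kept direction without passing, 1 passed (Gabarapl1, above) and 15 changed sign, none of them past the threshold. With one library left out, log2 fold changes ran from -0.58 to 0.28 for Map1lc3b (above zero without Acly-KD replicate 1 or control replicate 2), -0.71 to 0.035 for Sqstm1 (likewise), -0.46 to 0.77 for Ctsl (below zero without Acly-KD replicate 3), -0.34 to 0.058 for Gm20402 (above zero without Acly-KD replicate 2 or control replicate 3) and -0.33 to 0.0083 for Foxo1 as mRNA (above zero without control replicate 3). The Xist term leaves control replicate 1 as the sole control, so its values, sign changes included, compare Acly-KD with that 1 library; with it the value was 0.34 for Map1lc3b, 0.31 for Sqstm1, 0.44 for Gm20402, -0.16 for Gm15943, 0.24 for Mrnip and 0.40 for Foxo1 as mRNA, and with the wrong-strand term 0.062 for Map1lc3b. The terms for Xist and for wrong-strand reads were added after the data were seen. At their own loci 4 of the 10 members had too few reads to be tested, and 2 of the 10 had a value in the reading of mRNA.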
